A study of Mus musculus with 12 samples.

Results

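Macrophage activation state genes are genes by which the functional state of macrophages is commonly read. The 10 genes examined were listed by name, with earlier results of these data known: Arg1, Nos2, Mrc1, Retnla, Chil3, Cd163, Trem2, Spp1, Gpnmb and Folr2. Of the 19938 genes named on the arrays, 9 of these 10 had a probeset under their symbol in the platform annotation, 1 each. Spp1 was not matched, so no value is given for it. A filter on low values left 8 of them for testing, since Chil3 did not pass. Each was also set against Csf1r, the receptor for the macrophage growth factor CSF1, and Adgre1, which encodes a surface receptor of mature macrophages, both of which mark macrophages whatever their state.

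RNA was measured on Affymetrix mouse gene arrays in 12 subcutaneous tumors, 4 in each of 3 groups, numbered 1, 2, 4 and 5. The cells of all groups were J2A, a myofibroblast line from the aorta of C57BL/6 mice that lack p16, p19 and Vnn1, transformed by a retroviral vector for GFP-tagged H-RasV12. R cells received Ras alone, VR cells also received intact mouse Vnn1, which encodes a pantetheinase, and VdR cells received the form of Vnn1 without catalytic activity. The CMV promoter of the vector drives Vnn1, and the knockout background is shared by all groups. Tumors grew on the back of nude mice, which lack most T cells but keep macrophages, monocytes and dendritic cells of their own. The labels place harvest 2 to 3 weeks after grafting according to how fast a tumor grew, whereas the methods name the last day of that range for these samples, and the age of the mice is not given in the sources used here. The methods describe tumor tissue whereas the extraction label speaks of sorted cells, so the cell content of the samples is known from their markers only. Each group comes from 1 transduced line as far as the sources tell, so p-values measure the spread between tumors of that line. The labels were checked with Vnn1, whose log2 value was 5.53 to 5.83 in R tumors, 11.37 to 11.73 in the VdR group and 10.54 to 11.26 in the VR group.

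Macrophages take up different programs according to the signals around them. Interferon gamma and microbial products induce a classical state, marked in the mouse by Nos2, whose product makes nitric oxide from arginine, whereas IL-4 and IL-13 act through STAT6 to induce an alternative state, marked by Arg1, Retnla, Chil3 and Mrc1. Arg1 competes with Nos2 for arginine. Cd163, Folr2 and Mrc1 mark many resident tissue macrophages, while Trem2, Spp1 and Gpnmb mark lipid-associated macrophages that accumulate in obese fat, injured tissue and tumors. None of these genes is strictly confined to macrophages, and Gpnmb, Spp1 and Arg1 can also be expressed by other cells.

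The sequences upstream of the 5 genes called in VR versus R are shown first, because several of these genes rose together. Of these 5, Retnla passed the filter on low values through the VR group, where it was high. Over all genes tested, 13.6% were called higher and 7.48% lower in that comparison. RefSeq promoters of mouse build GRCm38.p6 were found for 8 of the 10 genes, not for Arg1 and Nos2, and the 250 bases before the gene start were searched. In each line below, read 5′ to 3′ on the strand of the gene, capitals mark matches to any of 5 motifs, and a run of capitals longer than a motif is a pair of overlapping or adjoining matches. The motifs, searched on both strands, were the PU.1 and ETS core GGAAGT, the STAT6 type, which is TTC and GAA with any 4 bases between them, the C/EBP type TTNNGNAA, the E-box CACGTG of MITF and TFE factors and the AP-1 type TGANTCA.
Retnla promoter, chr16:48842359-48842608, plus strand: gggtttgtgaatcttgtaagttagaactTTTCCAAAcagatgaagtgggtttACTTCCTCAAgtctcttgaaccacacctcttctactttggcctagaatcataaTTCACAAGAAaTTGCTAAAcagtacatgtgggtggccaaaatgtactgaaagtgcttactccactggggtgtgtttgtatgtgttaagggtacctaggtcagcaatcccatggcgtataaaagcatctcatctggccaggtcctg
Mrc1 promoter, chr2:14229164-14229413, plus strand: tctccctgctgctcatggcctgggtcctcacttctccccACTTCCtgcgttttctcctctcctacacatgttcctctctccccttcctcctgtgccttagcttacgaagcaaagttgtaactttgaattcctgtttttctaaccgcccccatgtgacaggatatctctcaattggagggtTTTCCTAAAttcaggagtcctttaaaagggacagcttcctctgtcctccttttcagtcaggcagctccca
Folr2 promoter, chr7:101857191-101857440, minus strand: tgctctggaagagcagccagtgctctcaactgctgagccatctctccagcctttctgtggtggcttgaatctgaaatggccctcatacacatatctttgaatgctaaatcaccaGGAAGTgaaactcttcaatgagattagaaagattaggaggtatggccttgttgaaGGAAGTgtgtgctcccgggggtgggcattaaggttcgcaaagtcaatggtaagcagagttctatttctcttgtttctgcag
Trem2 promoter, chr17:48346151-48346400, plus strand: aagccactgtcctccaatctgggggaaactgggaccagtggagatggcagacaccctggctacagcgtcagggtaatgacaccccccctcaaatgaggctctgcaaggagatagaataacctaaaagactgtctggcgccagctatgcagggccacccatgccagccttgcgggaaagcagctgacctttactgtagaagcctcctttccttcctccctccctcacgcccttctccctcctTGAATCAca
Gpnmb promoter, chr6:49036268-49036517, plus strand: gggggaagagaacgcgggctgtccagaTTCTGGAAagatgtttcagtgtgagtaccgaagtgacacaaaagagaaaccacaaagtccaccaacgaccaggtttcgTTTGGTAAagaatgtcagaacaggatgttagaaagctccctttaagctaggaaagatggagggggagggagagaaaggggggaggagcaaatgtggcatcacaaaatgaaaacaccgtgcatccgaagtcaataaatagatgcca

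The 8 genes had 10 promoter windows, since Spp1 and Folr2 each have 2 starts. The PU.1 and ETS core, the element of the macrophage master regulator, was present in 5 of the 10 windows and in 19.7% of 32851 promoters. In Folr2 it occurred at -136 to -131 and again at -81 to -76, counted from the gene start, and in Mrc1 it occurred at -211 to -206. The STAT6 type was found in 1 window, that of Retnla, where TTCACAAGAA lay at -145 to -136, and in 5.85% of all promoters. The C/EBP type was found in 6 windows and in 36.8% of promoters, the AP-1 type in 2 windows and in 6.75%. No window held the E-box, which 6.02% of promoters held. Such matches describe the letters only.

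The 2 reference genes were higher in all Vnn1 tumors, with intact or deficient enzyme, than in R tumors. Log2 expression of Csf1r was 10.13, 10.43, 10.16 and 10.34 in R tumors, 11.39, 11.68, 11.79 and 11.45 in the VdR group and 11.53, 11.35, 11.41 and 11.41 in the VR group, each in the order of tumors 1, 2, 4 and 5, which all lists of 4 values follow. For Adgre1 the values were 9.15, 9.54, 8.97 and 9.24 in R tumors, 10.76, 10.86, 10.85 and 10.60 in the VdR group and 10.80, 10.75, 10.58 and 10.56 in the VR group. No R tumor overlapped the other groups in either gene. Over all genes, 15.3% lay higher without overlap in VR than in R and 9.73% in VdR. By limma over all 16573 genes tested, Csf1r rose by 1.16 in VR and 1.31 in VdR over R, and Adgre1 by 1.45 and 1.55, with adjusted p-values between 4.31e-05 and 5.06e-05. Of 18 macrophage markers, 16 rose in VR and 16 in VdR versus R, and their mean log2 value was 9.12 to 9.45 in R tumors, 10.15 to 10.35 in the VdR group and 10.05 to 10.35 in the VR group. The exceptions in VR were Cd14 and Mertk, in VdR Csf2ra and Mertk. In tissue RNA, more macrophages and more of these transcripts per macrophage cannot be told apart.

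The activation genes went in different directions. Retnla passed the filter on low values through the VR group, where it was high, and is left out of the counts in this paragraph. In VR versus R tumors, 3 of the other 7 tested genes rose (Mrc1, Folr2 and Trem2), Gpnmb fell and 3 did not pass (Arg1, Nos2 and Cd163). Their median log2 change was 0.54, against -0.015 over all genes tested. Over all genes, 13.6% were called higher and 7.48% lower. In VdR versus R tumors, 4 of the 7 rose (Mrc1, Folr2, Trem2 and Cd163) and 3 did not pass, with a median of 0.71 against 0.004 over all genes, of which 6.58% were called higher and 2.81% lower. No tested member had every VdR tumor below every R tumor, as 4.50% of all genes did. Between VR and VdR tumors limma called none of the 8 tested genes, Retnla included, at an adjusted p under 0.05. Over all genes, 1.77% were called higher and 1.67% lower in that comparison at the adjusted threshold. At an unadjusted p under 0.05, Gpnmb and Folr2 were lower in VR, and Retnla, which entered the test through VR, was higher. The share of all genes at that unadjusted threshold was not counted, so these 3 of the 8 have no background beside them. VR versus R and VdR versus R share the 4 R tumors, so the rises common to both are not independent of each other.

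**Figure D1:**
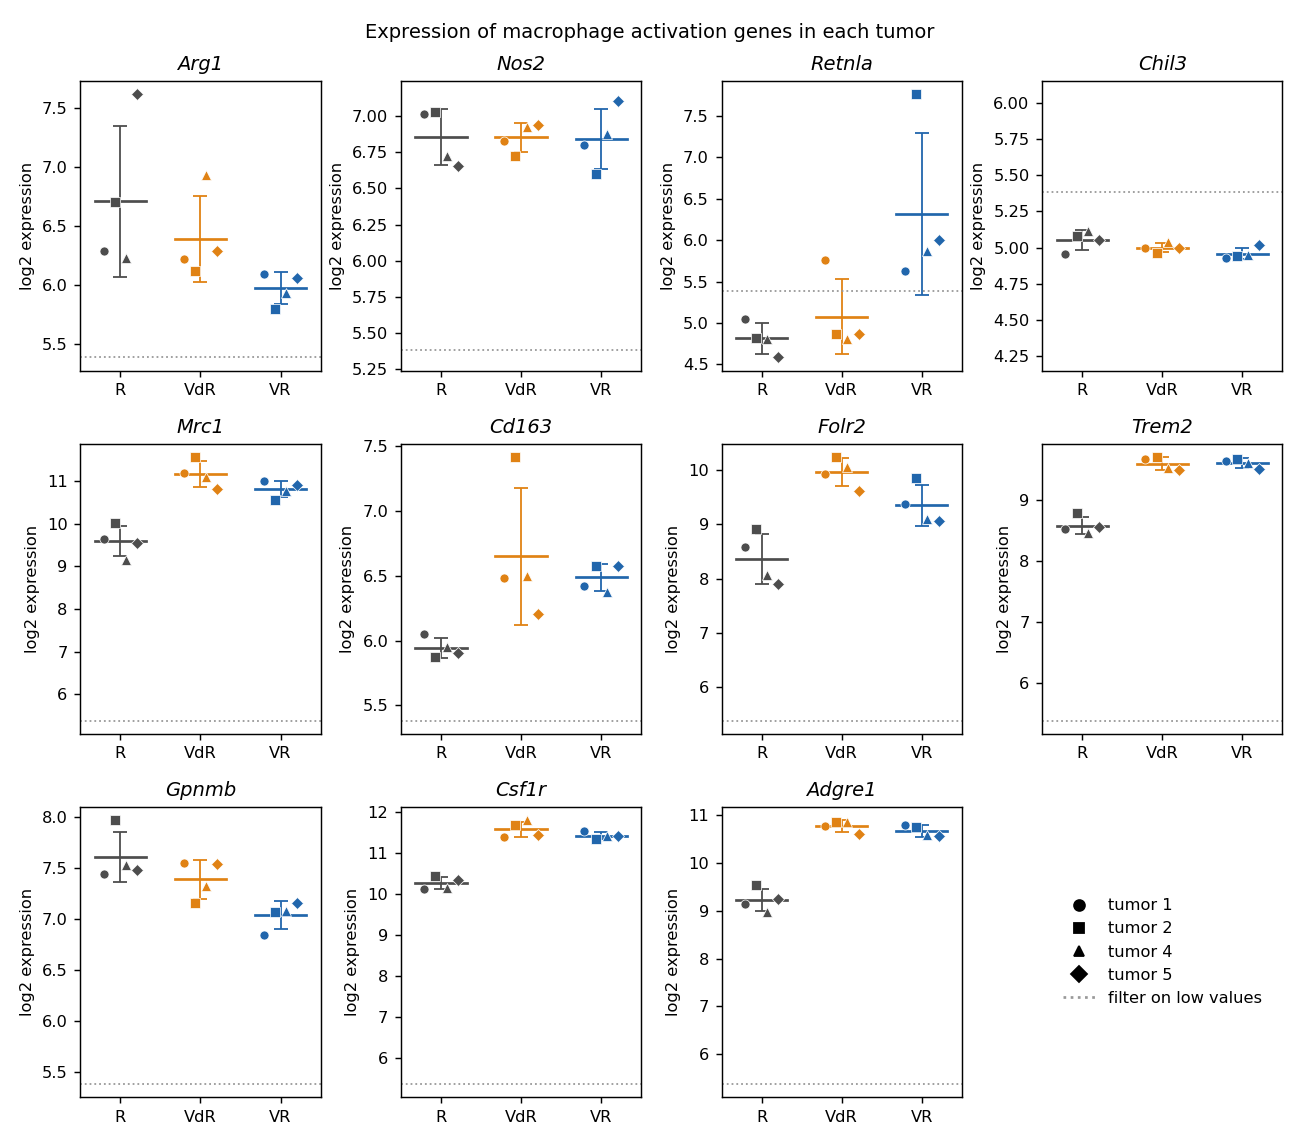
Log2 expression of each gene (y axis, a separate scale in each panel) in the R, VdR and VR tumors, with the tumor number as symbol, the group mean as a long line and the SD as error bar. The dotted line is the level of 5.38 used by the filter on low values. Mrc1, Folr2 and Trem2 follow Csf1r and Adgre1 with R tumors lowest, Nos2 is level in the 3 groups, and Arg1 and Gpnmb are lowest in VR tumors.

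The 2 enzymes that share arginine were not called in any of the 3 comparisons. Log2 expression of Nos2, inducible nitric oxide synthase, was 7.01, 7.03, 6.72 and 6.66 in R tumors, 6.83, 6.72, 6.92 and 6.94 in the VdR group and 6.80, 6.60, 6.87 and 7.10 in the VR group. The 3 groups overlapped fully, with means between 6.84 and 6.86. The log2 difference between VR and R was -0.01 with a 95% confidence interval from -0.25 to 0.23 (limma, adjusted p = 0.948), and that between VdR and R was -0.002 with an interval from -0.25 to 0.24 (adjusted p = 0.994).

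Log2 expression of Arg1, arginase of the liver and of alternatively activated macrophages, was 6.28, 6.70, 6.23 and 7.62 in R tumors, 6.22, 6.11, 6.93 and 6.29 in the VdR group and 6.09, 5.80, 5.93 and 6.06 in the VR group. Every VR tumor lay below every R and every VdR tumor, and the spread was 0.64 (SD, n = 4) in R, 0.37 (SD, n = 4) in VdR and 0.14 (SD, n = 4) in VR tumors. The exact permutation test of 4 tumors against 4 gave p = 0.0286 (two-sided) for VR against each other group, which is the smallest it can give. Over all genes, 10.5% did not overlap between VR and R with VR lower, and 6.77% between VR and VdR. By limma the VR to R difference was -0.74 ± 0.27 (SE) with an adjusted p of 0.0673, and the VR to VdR difference was -0.42 ± 0.27 (SE) with an adjusted p of 0.430. R tumor 5 was far above the other R tumors, and without it the VR to R difference was -0.44 (limma, adjusted p = 0.105). Without R tumor 4 it was -0.90 and passed the test (adjusted p = 0.0471).

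Few other genes of arginine metabolism passed the test. Over all genes, 13.6% were called higher and 7.48% lower in VR versus R. The shares were 6.58% and 2.81% in VdR versus R, and 1.77% and 1.67% in VR versus VdR. These shares stand beside every list count below, and a count close to them says nothing particular about a list. Of 16 tested, including Arg1 and Nos2, 2 passed in VR versus R: Oat, which feeds ornithine towards proline, rose by 0.34 (limma, adjusted p = 0.00224) and Nos1, the neuronal nitric oxide synthase, fell by 0.26 (adjusted p = 0.014). In VdR versus R the spermidine synthase gene Srm rose by 0.24 (adjusted p = 0.0364), and in VR versus VdR the argininosuccinate lyase gene Asl fell by 0.31 (adjusted p = 0.0471). These last 2 calls were lost on leaving out any 1 of 7 and any 1 of 10 tumors. The median change of the 16 genes was -0.12, -0.08 and -0.04 in the 3 comparisons. Arg2, the mitochondrial arginase, differed from R by -0.23 in VR (adjusted p = 0.266) and by -0.25 in VdR tumors (adjusted p = 0.334), and the arginine transporter Slc7a2 by 0.46 and 0.13 (adjusted p = 0.187 and 0.806).

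Among the secreted markers of the alternative state, Retnla (RELM alpha, FIZZ1) was detected mainly in VR tumors and Chil3 (Ym1) in none. Log2 expression of Retnla was 5.05, 4.82, 4.81 and 4.58 in R tumors, 5.76, 4.87, 4.81 and 4.87 in the VdR group and 5.63, 7.76, 5.87 and 6.00 in the VR group. Only 5 arrays exceeded the filter level of 5.38, namely the 4 VR tumors and VdR tumor 1, so Retnla passed the filter through the VR group. With each R array set at that level, the VR mean was at least 1.91-fold higher. The limma fit on the values as given had an adjusted p of 0.0156, which says little since the VR group admitted the gene to the test. VR tumor 2 stood well above the rest, and without it the adjusted p was 0.00784. Between VR and VdR the groups overlapped through VdR tumor 1, the difference was 0.84 with the 3 low VdR arrays set at the filter level, and the adjusted p of the values as given was 0.0973. Between VdR and R no difference is given, since 7 of the 8 arrays lay below the level.

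Retnla is also expressed in fat, and adipocyte genes were uneven between tumors. Retn, which encodes the adipocyte hormone resistin, was 7.47 and 7.43 in VdR tumors 1 and 2 and 7.59 in VR tumor 1, and between 5.79 and 5.96 in the other 9 tumors. Adipoq, the adiponectin gene, was 5.97, 6.54 and 6.62 in those tumors and 5.17 to 5.40 in the others. VdR tumor 1, with Retnla at 5.76, is among the tumors with high Retn and Adipoq. The others, VdR tumor 2 and VR tumor 1, had Retnla at 4.87 and at 5.63, the lowest of the VR group. VR tumor 2, with Retnla at 7.76, had Retn at 5.80 and Adipoq at 5.17. The mean of 6 adipocyte markers was 6.34 to 6.50 in R tumors, 6.28 to 7.25 in the VdR group and 6.35 to 7.27 in the VR group, and limma called none of the 6 in any comparison, nor did any reach an unadjusted p of 0.05. The part of fat in the Retnla values was not tested.

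Chil3 lay between 4.93 and 5.12 in all 12 tumors, below the filter level, and was given no limma test. Its close relative Chil4 lay between 4.43 and 4.55, also below. The resistin-like genes Retnlb and Retnlg, relatives of Retnla, lay at 4.90 to 5.14 and 5.20 to 5.37. Detection on an array is limited by background, so a low transcript level of these genes is possible.

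Of the scavenger and endocytic receptors, Mrc1 and Folr2 rose with the macrophage markers in both comparisons with R, and Cd163 in VdR versus R. Mrc1 encodes the mannose receptor CD206, which takes up glycoproteins and collagen fragments. Its log2 expression was 9.63, 10.02, 9.15 and 9.54 in R tumors, 11.18, 11.55, 11.09 and 10.80 in the VdR group and 10.99, 10.55, 10.77 and 10.91 in the VR group. Every VdR and VR tumor was above every R tumor, as in 9.73% of all genes for VdR and 15.3% for VR, and VdR and VR overlapped. Mrc1 rose 2.33-fold in VR (log2 1.22 ± 0.18 (SE), limma, adjusted p = 0.000894) and 2.97-fold in VdR versus R (log2 1.57 ± 0.18 (SE), adjusted p = 0.000274). The VR to VdR difference was -0.35 with a 95% confidence interval from -0.75 to 0.04 (adjusted p = 0.325).

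Folr2 encodes folate receptor beta, a marker of resident macrophages. Its log2 expression was 8.58, 8.91, 8.07 and 7.90 in R tumors, 9.92, 10.23, 10.05 and 9.62 in the VdR group and 9.38, 9.86, 9.10 and 9.05 in the VR group. The order was R, VR, VdR from low to high. R lay below both others without overlap, as in 15.3% of all genes for VR and 9.73% for VdR. VR overlapped VdR only through VR tumor 2. Folr2 rose 1.98-fold in VR (log2 0.98 ± 0.23 (SE), limma, adjusted p = 0.00985) and 3.01-fold in VdR versus R (log2 1.59 ± 0.23 (SE), adjusted p = 0.00115). The VR to VdR difference was -0.61 with a 95% confidence interval from -1.11 to -0.11, an adjusted p of 0.165 and an exact permutation p of 0.0571.

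Cd163 encodes the receptor for haemoglobin bound to haptoglobin. Its log2 expression was 6.05, 5.87, 5.95 and 5.90 in R tumors, 6.49, 7.41, 6.50 and 6.20 in the VdR group and 6.42, 6.58, 6.37 and 6.58 in the VR group. R tumors lay below all others, a pattern shown by 15.3% of all genes for VR and 9.73% for VdR. The change from R was 0.71 ± 0.19 (SE) in VdR (limma, adjusted p = 0.0389) and 0.54 ± 0.19 (SE) in VR (adjusted p = 0.0653). VdR tumor 2 carried the VdR spread, and without it the VdR change was 0.45 (adjusted p = 0.0117) and the VR change of 0.54 passed (adjusted p = 0.00123). The VdR call did not hold in 16 of 21 alternatives, among them leaving out any 1 of the R tumors, any 1 of the VR tumors, VdR tumor 1 or VdR tumor 4, with adjusted p-values from 0.0501 to 0.0881 for those 10.

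Trem2 and Gpnmb, both used as markers of the lipid-associated state, went in opposite directions in VR versus R. Trem2 encodes a lipid-sensing receptor of macrophages that signals through Tyrobp (DAP12). Its log2 expression was 8.53, 8.78, 8.46 and 8.56 in R tumors, 9.67, 9.70, 9.52 and 9.49 in the VdR group and 9.64, 9.68, 9.60 and 9.51 in the VR group. The VR and VdR tumors overlapped and all lay above R, as in 15.3% of all genes for VR and 9.73% for VdR. Trem2 rose 2.04-fold in VR (log2 1.03 ± 0.08 (SE), limma, adjusted p = 4.64e-05) and 2.02-fold in VdR (log2 1.01 ± 0.08 (SE), adjusted p = 4.74e-05), and the VR to VdR difference was 0.01 with a 95% confidence interval from -0.15 to 0.18. Its adaptor Tyrobp rose by 1.06 (adjusted p = 0.000495) and 1.19 (adjusted p = 0.000357), and Apoe, a ligand of TREM2, by 0.45 (adjusted p = 0.00352) and 0.57 (adjusted p = 0.00146).

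Gpnmb encodes a transmembrane glycoprotein of lysosomes and melanosomes found in macrophages, osteoclasts and melanocytes. Its log2 expression was 7.44, 7.97, 7.53 and 7.48 in R tumors, 7.55, 7.15, 7.32 and 7.54 in the VdR group and 6.84, 7.07, 7.08 and 7.16 in the VR group. All VR tumors lay below all R tumors, as in 10.5% of all genes, whereas VdR overlapped both. Gpnmb fell by 0.57 on the log2 scale in VR versus R (SE 0.12, limma, adjusted p = 0.00711). The VdR to R difference was -0.21 (adjusted p = 0.338) and the VR to VdR difference was -0.36 with a 95% confidence interval from -0.63 to -0.09 (adjusted p = 0.135). Melanocyte markers were measured beside it. Of 7 tested, Kit alone rose in VR versus R, by 0.48 (adjusted p = 0.0282), where 13.6% of all genes rose. This call was lost on leaving out any 1 of 6 tumors. Tyr lay between 4.92 and 5.07 in all tumors, and the mean of the list was 6.32 to 6.49 in R tumors, 6.36 to 6.44 in the VdR group and 6.37 to 6.45 in the VR group. Of 10 osteoclast markers, Ctsk and Tnfrsf11a rose in VR versus R, by 1.35 and 0.76, and Itgb3 fell, where 13.6% of all genes rose and 7.48% fell. Whether these cells took part in the Gpnmb values was not tested. Pmel, the gene most closely related to Gpnmb, differed between VR and R by -0.17 (adjusted p = 0.0899).

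**Figure D2:**
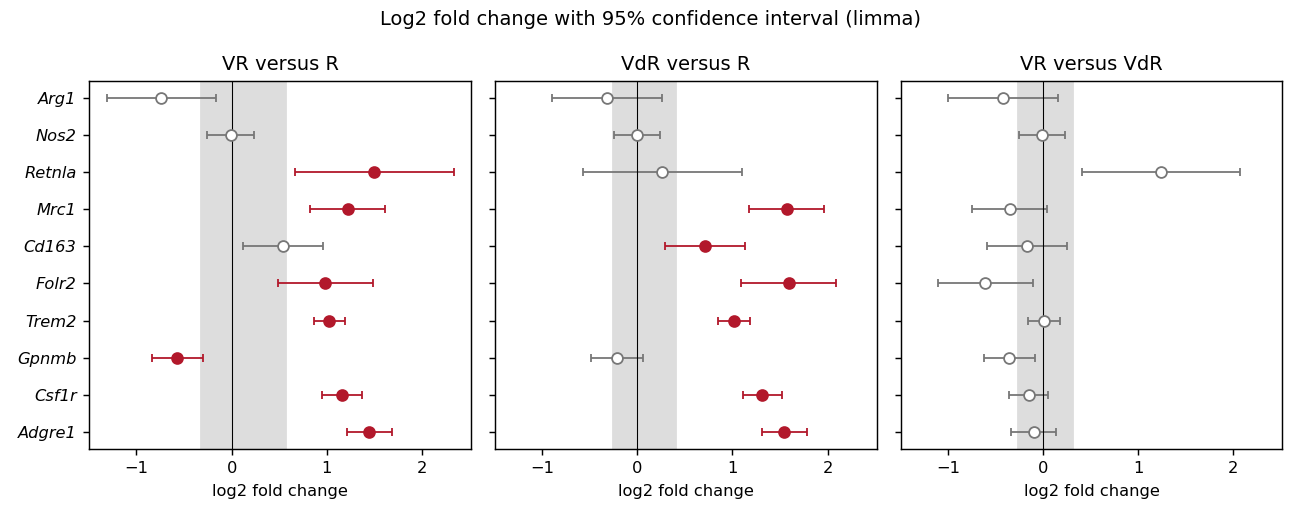
Log2 fold change (x axis) of the 8 tested genes and the 2 reference genes in each comparison, with 95% confidence intervals from limma. Filled red points passed an adjusted p of 0.05, open points did not, and the grey band spans the 5th to the 95th percentile of all genes tested. Mrc1, Folr2 and Trem2 are filled in both comparisons with R, Retnla and Gpnmb in VR versus R only, Cd163 in VdR versus R only, and no point is filled in VR versus VdR.

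The partners of the proteins encoded by these genes were followed from a list of ligands and receptors. Of 21 tested, 6 rose and 2 fell in VR versus R, and 5 rose and 1 fell in VdR versus R. Itgb3, a subunit of the osteopontin receptor, fell by 1.28 (limma, adjusted p = 0.00118) in VR and by 1.23 (adjusted p = 0.0026) in VdR, whereas the osteopontin-binding integrin subunit Itga4 rose by 1.36 (adjusted p = 0.0003) and 1.08 (adjusted p = 0.002). Csf1, the growth factor for Csf1r, rose by 0.66 (adjusted p = 0.0013) and 0.78 (adjusted p = 0.000834), and the folate transporter Slc46a1 by 0.22 in VR (adjusted p = 0.0207). Il4 and Il13, whose cytokines induce the alternative state, differed from R by -0.09 and -0.07 in VR and by -0.07 and -0.04 in VdR tumors (adjusted p = 0.300, 0.485, 0.53 and 0.796). Their receptor chain Il4ra rose in VdR by 0.45 (adjusted p = 0.00948), and Il13ra1 fell there by 0.32 (adjusted p = 0.0381).

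Of 22 receptors and transcription factors of macrophage activation, 7 rose and 3 fell in VR versus R. In VdR versus R, 6 rose and 2 fell. The median changes of the list were 0.03 and -0.01, against -0.015 and 0.004 over all genes tested. The 4 genes with the lowest adjusted p, named next, all rose. Maf, a factor of resident macrophages, rose by 1.15 and 1.17 (limma, adjusted p = 0.000151 and 0.000167). Irf8, needed for monocyte and dendritic cell development, rose by 0.92 and 0.62 (adjusted p = 0.000503 and 0.00836). The interferon gamma receptor chain Ifngr1 rose by 0.47 and 0.30 (adjusted p = 0.000234 and 0.00486), and the endotoxin receptor Tlr4 by 0.59 and 0.36 (adjusted p = 0.000371 and 0.0106). Mitf, a factor that drives Gpnmb in melanocytes and osteoclasts, differed between VR and R by 0.14 (adjusted p = 0.442). Of 19 tested gene relatives of the 10 genes, 3 fell in VR versus R, Nos1 and the bone matrix genes Dmp1 (by 2.03, adjusted p = 0.00588) and Ibsp (by 1.499, adjusted p = 0.00745), which belong to the family of Spp1. In VdR versus R, Dmp1 fell by 1.84 (adjusted p = 0.0177).

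Most genes of resident macrophages rose, and these lists were chosen with earlier results of the same samples known. Of 18 tested, which include Mrc1, Folr2 and Cd163, 12 rose in VR and 13 in VdR versus R, with medians of 1.14 and 1.21. Leaving out those 3, 10 of 15 rose in each comparison. Pf4, a chemokine gene of these cells, rose by 1.30 (limma, adjusted p = 0.000251) and 1.501 (adjusted p = 0.000161), and Igf1, a growth factor gene, by 1.73 (adjusted p = 0.000529) and 1.00 (adjusted p = 0.0196). Cbr2, a carbonyl reductase gene of resident macrophages, rose by 1.20 (adjusted p = 0.00806) and 2.08 (adjusted p = 0.000545). Lyve1, which also marks lymphatic endothelium, rose by 2.06 in VdR (adjusted p = 0.0158) and differed by 1.19 in VR (adjusted p = 0.0909), while the lymphatic factor gene Prox1 differed by -0.08 and -0.11 (adjusted p = 0.462 and 0.197). Timd4, another resident marker, differed by 0.26 in VR and 0.22 in VdR (adjusted p = 0.0734 and 0.192). Limma called none of the 18 between VR and VdR, where the median was -0.25. Of them 6 had an unadjusted p under 0.05, a threshold at which the share of all genes was not counted.

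Genes of alternative activation were counted in both comparisons with R, and the difference between the counts was not tested. Of 19 tested, 9 rose in VR versus R and 4 in VdR versus R, with medians of 0.46 and 0.21. Leaving out Arg1, Mrc1 and Retnla, 7 of 16 and 3 of 16 rose. On leaving out 1 tumor the VR count was 7 to 10 and the VdR count 3 to 7, the 7 without VR tumor 1. With only the groups compared in the fit, the VdR count was also 7, and with a filter at the median of all values the VR count was 5. The lectin genes Cd209a, Mgl2 and Clec10a, whose products recognise sugars and are shared by macrophages and dendritic cells, rose in VR versus R by 1.67, 1.495 and 0.67 (limma, adjusted p = 0.000126, 0.00142 and 0.000504). In VdR versus R, Cd209a rose by 0.99 (adjusted p = 0.00403) and Clec10a by 0.38 (adjusted p = 0.0203), and Mgl2 differed by 0.80 (adjusted p = 0.0598). Ccl22, a chemokine gene of alternatively activated macrophages and dendritic cells, was 5.81, 5.61, 5.58 and 5.78 in R tumors, 6.57, 5.70, 5.88 and 5.89 in the VdR group and 6.58, 8.48, 7.86 and 6.74 in the VR group. It was the 1 gene of this list called between VR and VdR, higher by 1.41 (adjusted p = 0.0483). The count of called genes there was 0 on leaving out any 1 of 9 tumors, and over all the alternatives it ranged from 0 to 2.

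Some genes of classical activation rose. Of 19 tested, 7 rose in VR versus R (Tnf, Il12b, Cd80, Cd86, Cxcl9, Irf5 and Ccr7) and 4 in VdR versus R, with medians of 0.26 and 0.11. Leaving out R tumor 2 lowered the VR count to 4. The costimulatory genes Cd80 and Cd86 rose by 0.99 and 0.88 in VR (limma, adjusted p = 0.000541 and 0.000561) and by 0.64 and 0.73 in VdR (adjusted p = 0.0113 and 0.00287), and Irf5, a factor of the classical state, by 0.91 and 0.89 (adjusted p = 0.000513 and 0.000998). Cxcl9, an interferon gamma-induced chemokine gene, was 6.69, 6.29, 6.36 and 6.39 in R tumors, 7.46, 6.28, 6.53 and 6.58 in the VdR group and 7.19, 9.01, 7.68 and 7.08 in the VR group, a rise of 1.31 in VR versus R (adjusted p = 0.0235). Tnf rose by 0.48 in VR and 0.51 in VdR (adjusted p = 0.0284 and 0.0376). Nos2 was not among the classical genes that rose, nor was Arg1 among the alternative ones. Chil3, below the filter level, was not tested.

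Genes of lipid-associated macrophages were mixed. Of 20 tested, 6 rose and 4 fell in VR versus R, and 4 rose and 2 fell in VdR versus R, with medians of 0.07 and 0.04. With Trem2, Tyrobp and Apoe, the lipid-handling genes Lpl, Cd36 and Lipa rose in VR, by 1.43, 2.01 and 0.35 (limma, adjusted p = 0.00499, 0.0241 and 0.00621). With Gpnmb, the genes Lgals3 (galectin-3), Ctsl (cathepsin L) and Cd9 fell, by 0.73, 0.45 and 0.26 (adjusted p = 0.0179, 0.00289 and 0.044). Without R tumor 4, 2 fell in VR in place of 4. In VdR the 2 that fell were Cd9, by 0.42 (adjusted p = 0.00863), and Mmp12, by 0.59 (adjusted p = 0.0403).

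**Figure D3:**
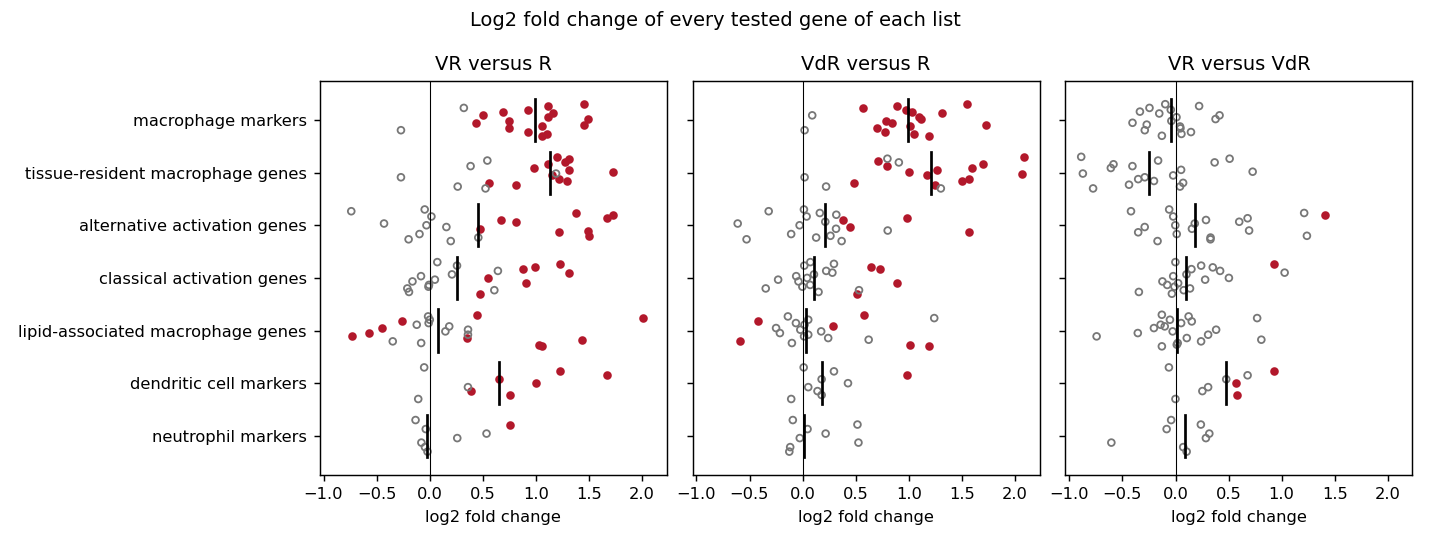
Log2 fold change (x axis) of every tested gene of 7 lists (rows) in each comparison, filled red where the adjusted p was under 0.05 and open otherwise, with the list median as a vertical bar. Macrophage markers and tissue-resident genes lie to the right in both comparisons with R, the activation lists spread around and above 0, and the lipid-associated list holds called genes on both sides.

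Markers of other cells moved with some of these groups. Dendritic cell markers rose in 6 of 9 genes in VR versus R (median 0.66) and in 1 of 9 in VdR versus R (median 0.18), and 3 of 9 were higher in VR than VdR: Flt3 by 0.57 (limma, adjusted p = 0.0344), Xcr1 by 0.58 (adjusted p = 0.0228) and Ccr7 by 0.93 (adjusted p just under 0.05). All 3 calls between VR and VdR were lost on leaving out VdR tumor 4 or 5 or VR tumor 2 or 4. The Ccr7 call was lost on leaving out any 1 of 10 tumors. The mean of the 9 genes was 6.44 to 6.51 in R tumors, 6.62 to 6.84 in the VdR group and 6.89 to 7.32 in the VR group. Clec9a is among the 6 that rose in VR versus R, but it passed the filter on low values through the VR group. It was 5.57 to 6.21 in VR tumors and 5.07 to 5.22 in R tumors, below the level of 5.38, so its call says little. Several genes of the activation lists, Cd209a and Ccr7 among them, are in the dendritic list as well, and the part of dendritic cells in the change of these genes was not tested. Ccr2 and Cx3cr1, receptors of monocytes, rose by 2.27 and 1.00 in VR (adjusted p = 0.00149 and 0.000326) and by 1.35 and 1.27 in VdR (adjusted p = 0.0411 and 0.000134), as 2 of 9 and, with S100a4, 3 of 9 monocyte markers. Without R tumor 5 the VR count was 4, and without any 1 of R tumors 1, 2 and 4 and VdR tumors 1 and 2 the VdR count was 1. Of 14 neutrophil markers, 6 including S100a8 and Ly6g were below the filter in these tumors. Of the 8 tested, 1 rose (Csf3r, by 0.76 in VR versus R, adjusted p = 0.0159), where 13.6% of all genes rose. Myofibroblast markers rose in 6 of 11 genes in VR and 1 of 11 in VdR versus R, and their mean was 10.50 to 11.06 in R tumors, 10.79 to 11.04 in the VdR group and 11.01 to 11.31 in the VR group. The grafted line is a myofibroblast line, but the part of its cells in these values was not tested, and S100a4 is in both this list and the monocyte list.

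To compare the activation genes at equal macrophage marker level, the mean log2 value of Csf1r and Adgre1 in each tumor, 9.56 to 9.99 in R tumors, 11.03 to 11.32 in the VdR group and 10.99 to 11.17 in the VR group, was subtracted from every gene and limma was fitted again. Since this mean is higher in VR and VdR, a gene that does not change falls on this scale: 97.8% of all genes were called lower and 0.181% higher in VR versus R, and 99.0% lower and 0.0362% higher in VdR versus R. A call of lower is thus what nearly every gene shows, and a gene stands apart here by not being called. Of the 7 tested genes other than Retnla, 5 were called lower in VR versus R and 5 in VdR versus R. Without overlap, 96.0% of genes lay lower and 0.0845% higher in VR than in R, 98.0% lower and 0.00603% higher in VdR than in R, and 0.905% lower and 7.52% higher in VR than in VdR. Values on this scale compare groups for 1 gene and do not rank the genes.

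Neither Mrc1 nor Folr2 was called on this scale in either comparison with R. The level of Mrc1 relative to the markers was -0.01, 0.03, -0.41 and -0.25 in R tumors, 0.10, 0.28, -0.23 and -0.22 in the VdR group and -0.18, -0.50, -0.22 and -0.08 in the VR group, and the 3 groups overlapped. The differences from R were -0.09 with a 95% confidence interval from -0.39 to 0.22 in VR (limma, adjusted p = 0.567) and 0.14 with an interval from -0.16 to 0.44 in VdR (adjusted p = 0.354). Folr2 differed by -0.32 (interval -0.68 to 0.04, adjusted p = 0.0796) and 0.16 (interval -0.20 to 0.52, adjusted p = 0.365). The VR to VdR difference of Folr2 was -0.48 with an interval from -0.84 to -0.12 and an adjusted p of 0.178. With the mean of the 18 macrophage markers as reference instead, Mrc1 and Folr2 were called higher in VdR than in R, by 0.64 and 0.66 (adjusted p = 0.000951 and 0.00166).

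Trem2 relative to the 2 markers was -1.11, -1.20, -1.11 and -1.23 in R tumors, -1.41, -1.57, -1.80 and -1.53 in the VdR group and -1.52, -1.38, -1.39 and -1.48 in the VR group. It was below R, having fallen by 0.28 in VR (limma, adjusted p = 0.0378) and by 0.41 in VdR (adjusted p = 0.00298). The direction depended on the reference: with the mean of the 18 macrophage markers the differences were 0.14 (adjusted p = 0.252) and 0.085 (adjusted p = 0.47). The VR call was lost on leaving out any 1 of 8 tumors (R tumors 1, 4 and 5, VdR tumor 2 and the 4 VR tumors), with adjusted p-values from 0.0503 to 0.0869.

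Retnla was the 1 member called between VR and VdR on this scale (limma, adjusted p = 0.013), but it entered the test through VR, and 3 of the 4 VdR arrays lay below the filter level. With those arrays set at that level the relative difference was 0.96. In this comparison 1.94% of all genes were called higher and 0.205% lower. Its relative level was -5.32, -6.40, -6.51 and -6.16 in the VdR group and -5.54, -3.29, -5.12 and -4.98 in the VR group. VR tumor 1 and VdR tumor 1 overlapped (exact permutation test, p = 0.0571). Without VR tumor 2 the relative difference of the values as given fell from 1.36 to 0.88, and Retnla was still called (adjusted p = 0.0116). Without VdR tumor 4 it was not called (adjusted p = 0.109). In VR versus R, Retnla was not called (adjusted p = 0.525). In VdR versus R the relative difference was -1.17 (adjusted p = 0.000642), the sixth call of lower there, but 7 of the 8 arrays lay below the filter level, so this value holds little beyond the rise of the reference genes.

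Relative to the markers Cd163 fell by 0.76 in VR and fell by 0.72 in VdR (limma, adjusted p = 0.000188 and 0.000333), Gpnmb fell by 1.87 and fell by 1.64 (adjusted p = 1.8e-10 and 1.96e-10), Arg1 fell by 2.04 and fell by 1.75 (adjusted p = 6.26e-10 and 2.73e-09) and Nos2 fell by 1.32 and fell by 1.43 (adjusted p = 3.9e-09 and 6.92e-10). The median of all genes fell by 1.32 and 1.43, which is also the size of the Nos2 change. The changes of Arg1 and Gpnmb were larger, but the p-values above test against no change and not against that median. On the log2 scale without the subtraction, limma called the fall of Gpnmb in VR versus R. It called neither Gpnmb in VdR versus R nor Arg1 in either comparison with R. With the mean of 18 markers as reference the Cd163 differences were -0.35 (adjusted p = 0.0787) and -0.22 (adjusted p = 0.249). Arg1 relative to the markers was -2.17 in R tumor 5 and between -3.36 and -3.29 in the other R tumors, -5.15 to -4.40 in the VdR group and -5.26 to -4.93 in the VR group.

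**Figure D4:**
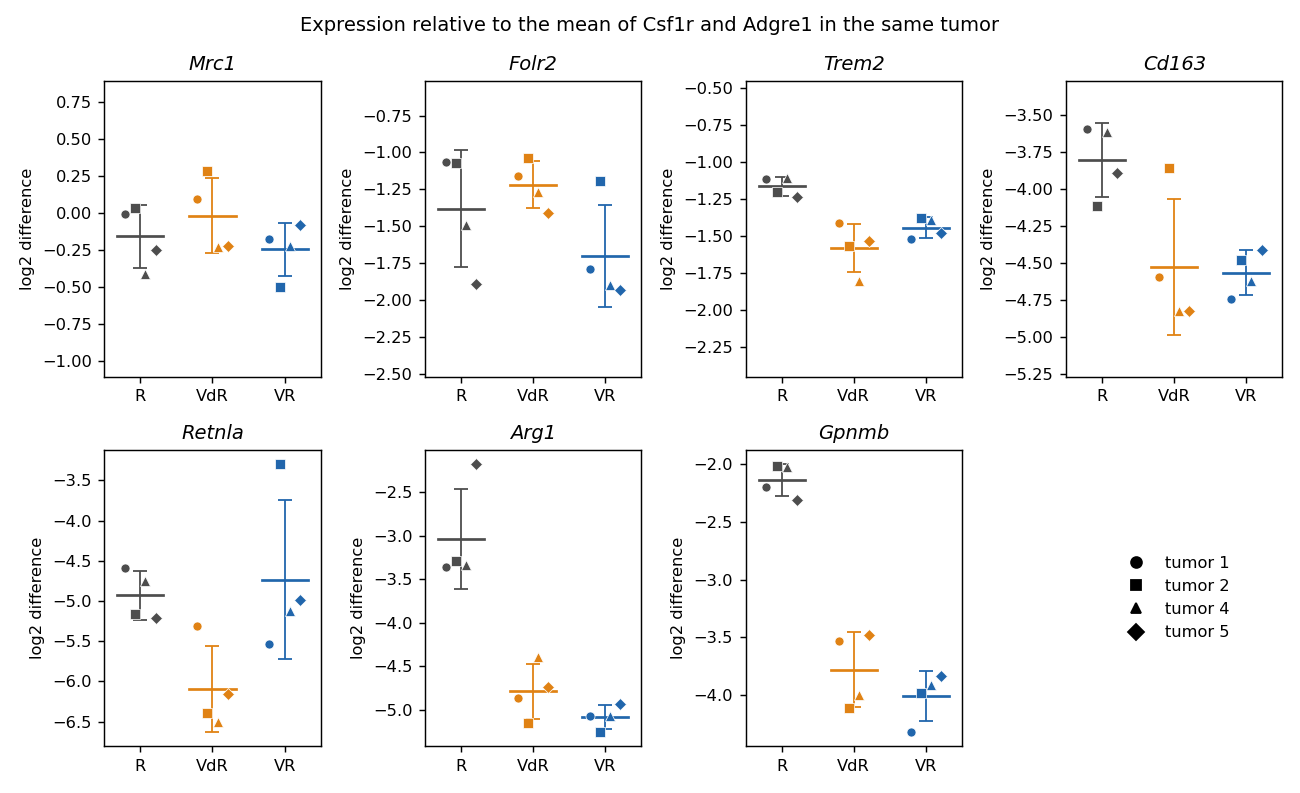
Log2 level of 7 genes minus the mean log2 level of Csf1r and Adgre1 in the same tumor (y axis, a separate scale in each panel), with the tumor number as symbol, the group mean as a long line and the SD as error bar. Mrc1 and Folr2 overlap between all groups. Gpnmb, Arg1 and Trem2 lie lower in VdR and VR than in R tumors without overlap, and Cd163 does so in VR. On this scale 98.0% of all genes lie lower without overlap in VdR and 96.0% in VR.

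The genes whose profile over the 12 tumors was nearest were found by the root mean square difference of log2 values after centring each gene, for the 7 tested genes with a range of at least 1. For Mrc1 these were Stard8 (0.14) and Slc9a9 (0.17), and 10 genes were nearer to it than Csf1r was. For Trem2 they were Myo1f (0.10), which encodes a myosin of leukocytes, and Nfatc2 (0.11), a transcription factor gene, and 64 genes were nearer than Csf1r. For Folr2 they were Sfrp2 (0.24), a secreted Wnt modulator gene, and Alox5 (0.26), the 5-lipoxygenase gene, with 36 genes nearer than Csf1r. For Cd163 they were the lectin gene Cd209d (0.15) and Lrmp (0.21). For Retnla they were Cxcl9 (0.22) and Ifi209 (0.28), an interferon-inducible gene. VR tumor 2 was the highest of all tumors for both Retnla and Cxcl9. For Arg1 they were Fzd3 (0.26) and Cyb561 (0.27), and for Gpnmb Hoxa9 (0.11) and Gm11517 (0.15). Csf1r was farther from Arg1 and Gpnmb than 16252 and 16291 of the 16573 genes. With 12 tumors in 3 groups, any gene that differs between the same groups is near, so these profiles are a description.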

How the data were processed

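RNA of 12 tumors, 4 each of R, VdR and VR, was measured on 1-colour Affymetrix mouse gene arrays. Per the submitters' processing notes the authors used RMA in the oligo package, whose version is not given in the sources used here. Each probeset has 1 deposited log2 value per tumor. RMA corrects background, forces all arrays onto 1 distribution and summarizes probes, which hides a change in total RNA content. Neither batches nor scan dates are given in the sources used here.

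Probesets were named where the platform annotation, whose symbols can be old, held exactly 1 symbol (21789 of 35556, with 1621 holding several symbols and 12146 holding no symbol). Each gene was represented by its probeset of highest mean. The test was limited to the 16573 genes that exceeded 5.38, the 25th percentile of all values, on 4 or more arrays. Arrays of a group correlated at 0.992 to 0.997 across genes, with no identical pair and array medians of 6.66 to 6.77. The number of arrays limits the precision.

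The main test was limma 3.58.1 in R 4.3.3, with lmFit and eBayes, a coefficient for each group and all 12 arrays in the fit. P-values were adjusted by Benjamini-Hochberg over all genes tested at a threshold of 0.05. Single genes were also compared with two-sided exact permutation tests over the 70 splits of 4 against 4 tumors. For the relative scale the mean of Csf1r and Adgre1 was subtracted before the same fit. The fit was tested on simulated data.

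Named are the 10 members, Csf1r, Adgre1 and Vnn1, from each list up to 4 genes with the lowest adjusted p, relatives, ligands, receptors and partners of members, and the 2 nearest profiles per member. List genes named beyond that were chosen after their values were seen. Members and lists were chosen with earlier results of these data known. Alternatives were no filter, a stricter filter at the median of all values, the mean of probesets, median centring, array weights, robust or trended moderation, cyclic loess, a replicate block, a fit of only 2 groups, the methods' t-test, which is stated for qRT-PCR, leaving out each tumor, and other references (Csf1r alone, Adgre1 alone, the mean of 18 macrophage markers). Promoters were taken from RefSeq, GRCm38.p6.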

Additional observations from a re-analysis of the deposited data

Results flagged for a closer look

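In each group of 4 tumors, the highest and lowest values of the members on both scales and of the reference genes on the log2 scale were checked for a tumor far from the other 3, in 60 groups of values, of which chance would mark about 1 in 20. In 2 groups a tumor stood apart. Retnla was at 5.76 in VdR tumor 1, the nearest other VdR tumor was at 4.87, and the gap made up 0.940 of the range of the group. Arg1 relative to Csf1r and Adgre1 was at -2.17 in R tumor 5, the nearest other R tumor was at -3.29, and the gap made up 0.941 of the range.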

How the results depend on the processing

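With 4 tumors of 1 line per group, an exact test cannot go below 0.0286, and low array signals such as those of Retnla and Chil3 are limited by background. The direction and call of the Mrc1 and Trem2 rises in VR and VdR versus R and of the Folr2 rise in VdR held under every alternative run. The Folr2 and Gpnmb calls in VR versus R held except with the methods' t-test (adjusted p = 0.0814 and 0.0505). The Retnla call there, of a gene that entered the test through VR, was also lost with the methods' t-test (adjusted p = 0.0994). The stricter filter left Retnla untested. That t-test called Cd163 (adjusted p = 0.0127), so 3 members were called in VR versus R. For changes near 0 the direction was not fixed, and for none of the changes below was the cause tested.

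All genes called numbered 5667, 2595 and 884 in VR versus R, VdR versus R and VR versus VdR with array weights, 2120, 493 and 30 with the t-test, and 2458 to 3581, 961 to 1775 and 86 to 748 on leaving out 1 tumor, against 3500, 1555 and 570. On the relative scale, 3 members were called in each comparison with R under the stricter filter, which tests fewer genes, and 3 in VR versus R with the mean of macrophage markers as reference. Between VR and VdR the relative count of 1 became 0 with the stricter filter, array weights (a fit that did not fully converge) or the t-test, and 0 to 2 on leaving out 1 tumor (0 without VdR tumor 4, 2 without VR tumor 2).

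The direction turned for Nos2 with cyclic loess (0.013 in VR versus R, 0.017 in VR versus VdR) and median centring (0.0043 in VR versus VdR), for Mrc1 relative in VR versus R with array weights (0.078), Csf1r alone (0.058) and the marker mean (0.33), and with the marker mean for Trem2 relative in VR (0.14) and VdR (0.085) and Folr2 relative in VR versus R (0.091). On leaving out 1 tumor, Nos2 ranged over -0.098 to 0.070, -0.069 to 0.056 and -0.096 to 0.072 in the 3 comparisons, Trem2 in VR versus VdR over -0.022 to 0.047, Cd163 in VR versus VdR over -0.31 to 0.091 and relative over -0.14 to 0.18, Retnla relative in VR versus R over -0.29 to 0.46 and Folr2 relative in VdR versus R over -0.0073 to 0.27.

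Tumors with the same number correlated at -0.151 to 0.398 in their deviations from the group means, and 8 of 12 pairs exceeded 0.1. A tumor correlated best with its own number in 10 of 24 comparisons with another group. Since neither the labels nor every pair bore out a pairing, the numbers were not taken to pair the samples. With the replicate block, 1 member was called between VR and VdR (Folr2, adjusted p = 0.026) and 2 relative to the references, where Folr2 was also called in VR versus R (adjusted p = 0.0313).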
